A study of Homo sapiens with 8 samples.

Results

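MGMT, which encodes the O6-methylguanine-DNA methyltransferase, was followed together with 6 other genes that act on alkylated DNA or on the mismatches it leaves: ALKBH2, ALKBH3, MPG, APEX1, MSH6 and PMS2. The group was chosen by the near absence of MGMT counts in the knockout libraries, and the other 6 were added for what they do. All 7 symbols were found among the 57996 gene symbols of the count files, and all 7 were among the 16233 genes that passed the filter on low counts. MGMT passed that filter only through its wild-type counts. The comparison that led to the choice, knockout against wild-type, is therefore a description for these 7 genes, and where one of them is said to pass or miss the threshold, that is no test of it.

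The cells were HAP1, a near-haploid human line derived from a chronic myelogenous leukaemia. Knockout libraries came from a single clone, clone 11, labelled as a knockout of BCDIN3D, an RNA methyltransferase gene, and wild-type libraries from HAP1 cells labelled as wild-type, so a property of that clone and an effect of the targeted gene cannot be told apart. The label that names the clone sits under a heading for shRNA status, while the study's design text speaks of a knockout. Each group had 2 total RNA libraries, dated 6 May and 9 May in their labels, from cells grown for 48 h in medium with 10% serum. No cells were treated with an alkylating agent according to the labels. Total counts were 20065041 to 21416336 in knockout libraries and 20728819 to 24415272 in wild-type libraries. BCDIN3D itself had 33 and 54 counts in knockout and 154 and 121 in wild-type libraries. Its transcript was thus lower but still present in the libraries labelled knockout, at 0.349 of the wild-type level (95% interval 0.247 to 0.492). Counts per gene do not show whether that RNA carries an edit, so loss of function was not tested here. Of 11 blood cell markers only 3 were tested, while the globin gene HBG1 had 0 counts in every library and PTPRC, the pan-leukocyte marker, at most 4. Among these, KIT was lower in knockout (log2 fold change -3.30 ± 0.23, SE) and TAL1 higher (0.32 ± 0.08). The TAL1 call was lost without wild-type replicate 1 (log2 fold change 0.26). ITGA2B was not called in the main fit (adjusted p = 0.106) but was in the fit blocked by date (adjusted p = 0.0444). Of 8 fibroblast markers 3 were tested and 0 called with edgeR (1 at an unadjusted p under 0.05, and 0 with DESeq2), and LUM and DCN had 0 counts in every library. Summed levels of the blood list were 71.2 and 74.1 CPM in knockout and 64.9 and 70.8 CPM in wild-type, and those of the fibroblast list 69.8 and 80.5 CPM in knockout and 69.6 and 83.8 CPM in wild-type.

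Alkylating agents attach methyl or larger alkyl groups to the bases of DNA, and cells remove them by separate routes. MGMT moves the alkyl group from the O6 position of guanine onto one of its own cysteines and is used up in the act. ALKBH2 and ALKBH3 are iron-dependent dioxygenases that oxidise methyl groups off the base-pairing positions of adenine and cytosine. MPG is the glycosylase that cuts out 3-methyladenine and related bases, and APEX1 nicks the abasic site left behind so that base excision repair can go on. O6-methylguanine that is left in place pairs with thymine, and the mismatch repair machinery acts on that pair, with MSH6 in the dimer that recognises it and PMS2 in the dimer that nicks the strand. In human tumours, silencing of MGMT with methylation of its promoter is known for sensitivity to temozolomide, whose toxicity depends on mismatch repair.

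The start of MGMT lies in a stretch dense in CpG dinucleotides, and it is shown here because its transcript was the one that was nearly absent. Beside it stand the first listed start of MSH6, which is almost as dense in CpG and whose transcript level was close to equal in both groups, and the start of ALKBH2, which reverses damage as MGMT does. All are the 250 bases before the transcription start, 5′ to 3′ on the strand of the gene, from RefSeq on GRCh38.p14, with every CpG in capitals. The windows are chr10:129466991-129467240 (plus strand) for MGMT, chr2:47782895-47783144 (plus strand) for MSH6 and chr12:109093473-109093722 (minus strand) for ALKBH2.
MGMT: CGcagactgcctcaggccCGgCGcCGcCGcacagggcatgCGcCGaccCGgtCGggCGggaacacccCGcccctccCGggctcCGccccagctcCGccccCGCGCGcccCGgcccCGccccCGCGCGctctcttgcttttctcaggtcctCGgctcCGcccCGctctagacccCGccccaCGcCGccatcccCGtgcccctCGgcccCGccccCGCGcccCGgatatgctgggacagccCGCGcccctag
MSH6: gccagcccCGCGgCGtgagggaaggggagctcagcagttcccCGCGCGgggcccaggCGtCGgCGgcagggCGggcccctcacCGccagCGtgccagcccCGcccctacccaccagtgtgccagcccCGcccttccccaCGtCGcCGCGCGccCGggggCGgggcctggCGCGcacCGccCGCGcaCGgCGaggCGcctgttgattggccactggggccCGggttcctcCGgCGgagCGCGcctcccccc
ALKBH2: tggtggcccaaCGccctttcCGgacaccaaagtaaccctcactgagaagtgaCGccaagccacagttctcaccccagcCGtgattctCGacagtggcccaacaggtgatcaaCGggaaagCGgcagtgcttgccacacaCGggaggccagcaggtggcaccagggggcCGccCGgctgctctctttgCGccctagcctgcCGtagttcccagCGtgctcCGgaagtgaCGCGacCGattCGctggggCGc

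The MGMT window held 36 CpG, a number reached by 4.85% of 35116 RefSeq windows of the same length, whose median was 11. The first MSH6 window held 34, reached by 6.84%, and the 3 later ones 21 to 23. MPG held 27, the 2 PMS2 windows 22 and 20, ALKBH2 19, ALKBH3 18 and APEX1 16. The hexamer GGGCGG, the core of the motif bound by the Sp1 factor family, was counted on both strands and contains a CpG, so that the 2 counts overlap. It occurred 8 times in the MGMT window, as often or more often in 0.584% of all windows, and at least once in 42.6% of them. The first MSH6 window held it 5 times, and the 3 later ones 1 to 3 times. MPG had 3 matches, each PMS2 window 2, ALKBH2 had 1 match, and ALKBH3 and APEX1 had 0 matches. These are letters of the reference genome. Neither DNA methylation nor factor binding was measured, and the start sites used in these cells are not known from counts per gene.

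MGMT was nearly absent from the knockout clone. The gene (chromosome 10, 129467241 to 129770983, GRCh38.p14) had 0 counts in the knockout library of 6 May and 1 in that of 9 May, against 173 and 254 counts in the wild-type libraries of those dates. Both knockout libraries thus lay far below both wild-type libraries. Scaled for depth, these were 0 and 0.0503 CPM (counts scaled to a common library size) in knockout and 8.32 and 10.3 CPM in wild-type. A count of 0 in the knockout library of 6 May allows up to 3 counts or 0.142 CPM. With the 173 wild-type counts of that date taken as exact, MGMT was thus at least 58.6-fold lower in knockout. On 9 May the knockout level was 0.489% of the wild-type level (95% exact interval 0.0123 to 2.75%), and over both dates 0.26% (0.00656 to 1.45%). The intervals cover counting error only, and the floor covers that of the knockout library alone. In bulk RNA a loss in every cell and a loss in all but a few cells cannot be told apart. Of 9880 tested genes with at least 427 counts in wild-type, as many as MGMT had, 2 had 1 count or fewer in knockout. These were MGMT and AMBN, which encodes an enamel matrix protein. Both limits were the counts of MGMT itself, for which it was chosen, so the 2 are no measure of how rare such a loss was. PTPRN2 (1 count in knockout and 350 in wild-type) and SETBP1 (0 and 255) fell below the wild-type limit.

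**Figure D1:**
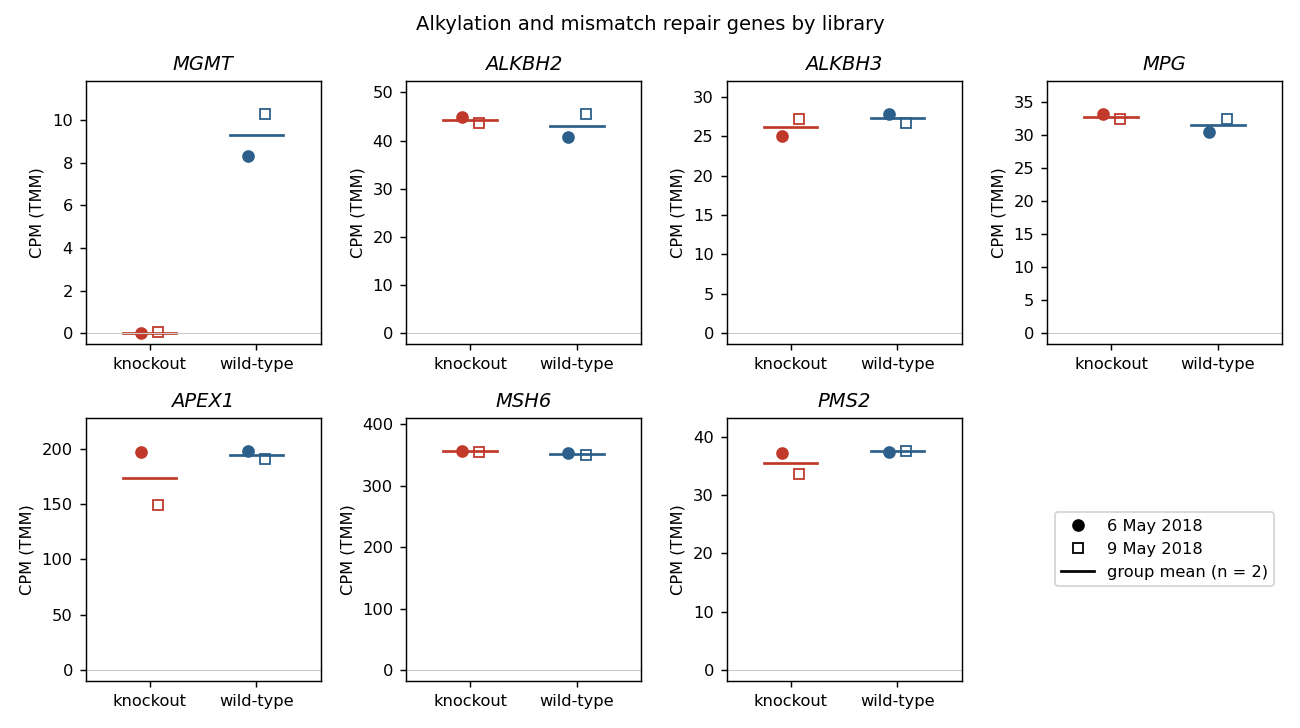
Levels of the 7 genes in each library in CPM scaled by TMM (trimmed mean of M-values), knockout left and wild-type right in each panel; circles are 6 May, squares 9 May and lines the mean of the 2 libraries, and every axis includes 0. MGMT lies at 0 and 0.0503 CPM in knockout, and APEX1 has 1 low knockout library at 149.6 CPM.

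The other enzymes that reverse alkylation directly stood at similar levels in both groups. ALKBH2, which works mainly on double-stranded DNA (chromosome 12, 109088189 to 109093472), had 45.0 and 43.6 CPM in knockout and 40.7 and 45.5 CPM in wild-type libraries. Its knockout values fell between its wild-type values. The fitted fold change, knockout over wild-type, was 1.03 (95% interval 0.911 to 1.16). ALKBH3, which prefers single-stranded DNA and RNA (chromosome 11, 43880831 to 43920274), had 25.02 and 27.2 CPM in knockout and 27.8 and 26.7 CPM in wild-type. Here too the groups overlapped, with a fold change of 0.958 (0.834 to 1.10). ASCC3, the helicase that unwinds DNA for ALKBH3, had a log2 fold change of 0.03 ± 0.06 (SE). Besides MGMT and these 2 genes the list of direct reversal held 5 tested genes, of which edgeR called 0 higher and 0 lower. None of the 5 (0) had an unadjusted p under 0.05 either, and DESeq2 called 0.

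MPG differed little, and APEX1 was lower in 1 knockout library. MPG (chromosome 16, 77007 to 85846) had 33.2 and 32.4 CPM in knockout and 30.5 and 32.5 CPM in wild-type libraries, and the groups overlapped. Its fold change was 1.04 (0.915 to 1.19). APEX1 (chromosome 14, 20455226 to 20457767) had 196.8 and 149.6 CPM in knockout and 198.4 and 190.5 CPM in wild-type. The knockout library of 9 May was the low one, while that of 6 May lay among the wild-type values. The log2 fold change was -0.17 ± 0.12 over all libraries, 0.02 without knockout replicate 2 (the 9 May library) and -0.38 without knockout replicate 1, where it passed the threshold (adjusted p = 7.99e-06). Within dates it was -0.01 on 6 May and -0.35 on 9 May.

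Of 16 other tested genes of base excision repair, edgeR called 0 (1 at an unadjusted p under 0.05, and 0 with DESeq2), and their median log2 fold change was 0.02. The smallest p was that of PARP2, a sensor of DNA strand breaks, with 51.4 and 48.4 CPM in knockout and 61.7 and 56.8 CPM in wild-type. Its log2 fold change was -0.25 ± 0.08 (adjusted p = 0.0542, and 0.0134 with the date as a block). DNA ligase LIG1 had 0.11 ± 0.07, and the gap-filling polymerase POLB -0.06 ± 0.10. Among 10 other DNA glycosylases 0 were called (2 at an unadjusted p under 0.05, and 0 with DESeq2). The lowest p values there were those of OGG1, which removes oxidised guanine (log2 fold change 0.29 ± 0.12, adjusted p = 0.181), and of the uracil glycosylase SMUG1 (0.23 ± 0.10, adjusted p = 0.223).

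The mismatch repair genes differed little. MSH6 (chromosome 2, 47783145 to 47810101) had 357.2 and 354.8 CPM in knockout and 353.1 and 349.3 CPM in wild-type libraries. The knockout values lay just above the wild-type values, and the fold change was 1.01 (0.937 to 1.10). Library-size scaling alone gave a log2 fold change of -0.0072, against 0.0196 with TMM. PMS2 (chromosome 7, 5970925 to 6009106) had 37.3 and 33.7 CPM in knockout and 37.4 and 37.7 CPM in wild-type, just without overlap, and a fold change of 0.946 (0.834 to 1.07). PMS2 has near-identical copies on chromosome 7, so that its counts are uncertain. The copy PMS2CL had 205 and 179 counts in knockout and 199 and 240 in wild-type (log2 fold change -0.04 ± 0.15), and PMS2P1 and PMS2P3 also had over 140 counts in every library.

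Of the 6 other tested genes of mismatch recognition 0 were higher and 1 was lower. This was EXO1, the exonuclease that removes the strand with the mismatch, with 85.2 and 85.7 CPM in knockout and 100.9 and 99.7 CPM in wild-type (log2 fold change -0.23 ± 0.07, edgeR adjusted p = 0.0296). The call was lost with DESeq2 (adjusted p = 0.0798), and it was lost when any 1 of the 4 libraries was left out (adjusted p 0.0634 to 0.265). The 14 genes that resynthesise the strand gave 0 calls (2 at an unadjusted p under 0.05, and 0 with DESeq2), with lowest p for the single-strand binding subunit RPA2 (0.16 ± 0.06, adjusted p = 0.18) and the polymerase subunit POLD1 (0.13 ± 0.06, adjusted p = 0.275).

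**Figure D2:**
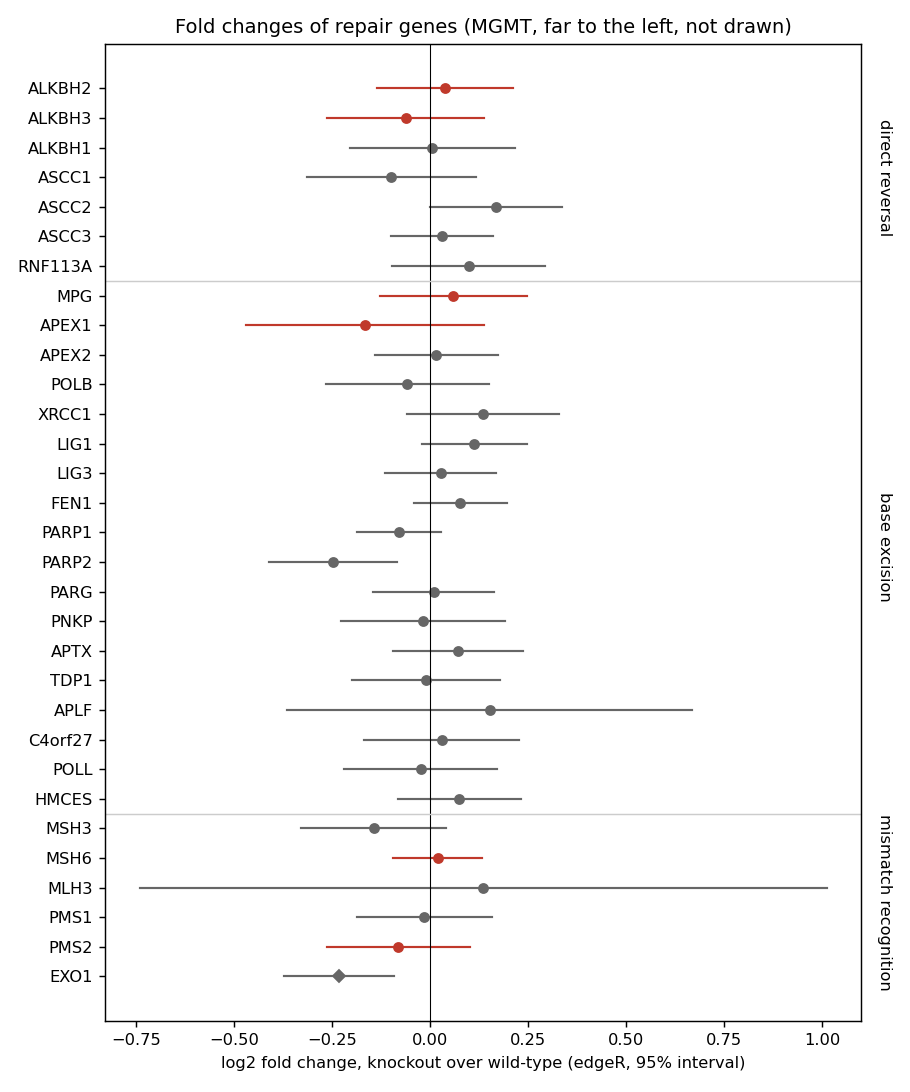
Log2 fold changes, knockout over wild-type, with 95% intervals from the edgeR fit for genes of direct reversal, base excision and mismatch recognition; red marks the members other than MGMT, which is not drawn, and a diamond a gene past an adjusted p of 0.05. EXO1 at -0.23 is the only diamond, and the intervals of the 6 red genes all include 0.

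Across the 7 genes, 0 were past the threshold as higher, where 3.06% of all tested genes were, and 1 was past it as lower, MGMT, where 3.5% of all tested genes were (6.56% either way). Over all genes 497 were higher and 568 lower, and with the date as a block 767 and 784. Since the group was built around MGMT, that count carries no weight. The values of the groups did not overlap for 3 of the 7 genes (MGMT, MSH6 and PMS2), as for 45.3% of all tested genes. Without MGMT, the median log2 fold change of the 6 genes was -0.02, beside 0.0017 over all tested genes. The widest of their 95% intervals, that of APEX1, ran from 0.723-fold to 1.10-fold, and the narrowest, that of MSH6, from 0.937-fold to 1.10-fold. A 2-fold change (log2 of 1 or -1) lay outside the interval of each of the 6.

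**Figure D3:**
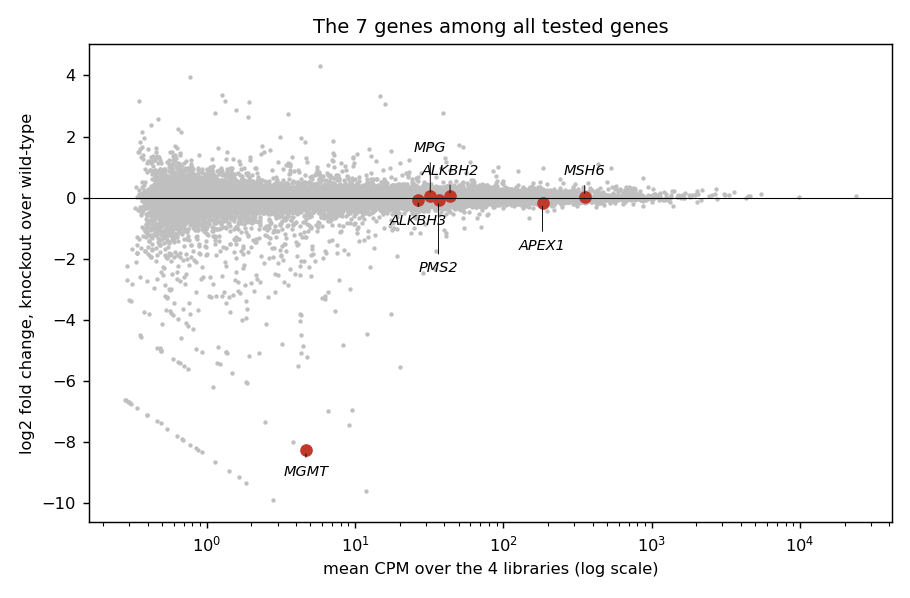
Mean level over the 4 libraries (CPM, log axis) against the log2 fold change, knockout over wild-type, for the 16233 tested genes in grey and the 7 genes in red. MGMT lies among the largest falls (its fitted -8.27 depends on the prior count added to a group with 1 count), and the other 6 lie close to 0.

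The date of the libraries gave a comparison that the choice of genes had not used. With the group as a covariate, edgeR called 72 genes (0.444% of those tested) between 9 May and 6 May, and 0 of the 7 were among them, with DESeq2 also at 0. At an unadjusted p under 0.05 there was 1, APEX1, with a log2 difference of -0.22 ± 0.06 (9 May over 6 May, adjusted p = 0.0913). That difference passed the threshold where the low-count filter was dropped (adjusted p = 0.0061), and the difference between dates was larger in knockout than in wild-type libraries, which was not tested. For the other 6 the date difference lay between -0.07 and 0.32. The 0.32 was that of MGMT (± 0.22, adjusted p = 0.602), which rests on its 2 wild-type libraries.

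The tested genes near MGMT were read for their own values. MGMT was chosen for its near absence in knockout, so its larger fall beside them is no result about the region. Of 6 tested genes within 2 Mb of its ends, 0 were higher and 1 was lower, beside 3.06% and 3.5% of all tested genes. The nearest tested gene was EBF3, for a transcription factor of developing neurons, whose nearer end lies 64 kb beyond the end of MGMT. EBF3 had 46.1 and 52.8 CPM in knockout and 44.5 and 45.2 CPM in wild-type libraries (log2 fold change 0.14 ± 0.08, adjusted p = 0.444). GLRX3, a cytosolic glutaredoxin 365 kb away, stood at 0.03 ± 0.06. On the other side the first tested gene was the proliferation marker MKI67, 1340818 bases before MGMT (-0.17 ± 0.08, adjusted p = 0.246, and 0.0167 with the date as a block). The gene called lower was PTPRE, a receptor-type tyrosine phosphatase at -1381 kb (negative for the side before MGMT), with 1.04 and 1.11 CPM in knockout and 3.65 and 4.74 CPM in wild-type (-1.97 ± 0.28, adjusted p = 4.62e-07). Of the tested genes 87.4% had a position, and the 1340818 bases before MGMT held no tested gene with one.

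**Figure D4:**
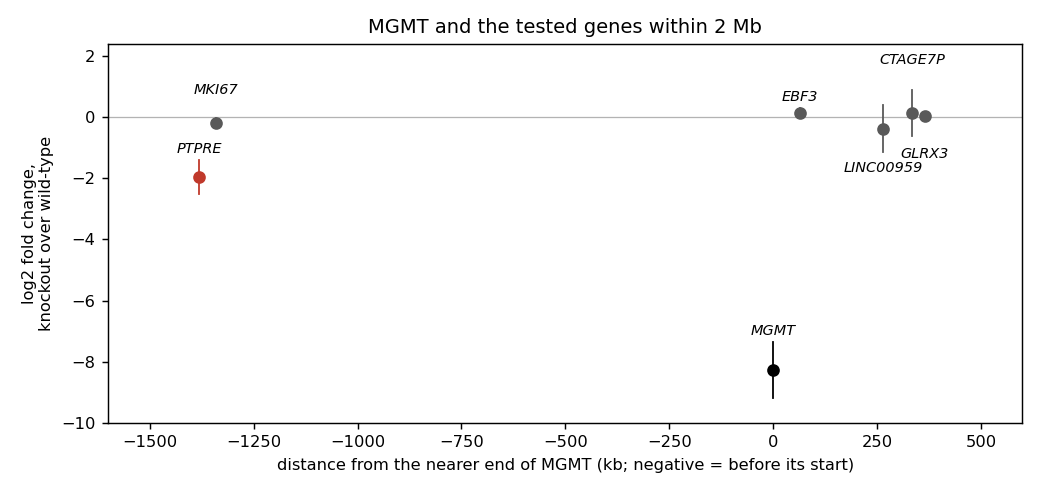
Log2 fold change, knockout over wild-type, with its 95% edgeR interval, against the distance in kb from the nearer end of MGMT, for MGMT and the 6 tested genes within 2 Mb; MGMT is black, and red marks an adjusted p under 0.05 among the others. PTPRE at -1.97 is the only red gene, and EBF3, the nearest, lies at 0.14.

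The nearest tested gene on each side of each of the 7 genes was read in the same way. Of these 14 neighbours edgeR called 0 (3 at an unadjusted p under 0.05, and 0 with DESeq2), beside 6.56% of all tested genes. So few genes cannot show a difference from that share. Log2 fold changes of the 14 ran from -0.37 (CCZ1, before PMS2) to 0.23 (NPRL3, which overlaps MPG by 461 bases). Some members share sequence with a neighbour. FBXO11 overlaps the annotated span of MSH6 by 3182 bases (log2 fold change -0.01 ± 0.10), and TMEM55B that of APEX1 by 87 bases (0.09 ± 0.10). OSGEP lies 414 bases from APEX1 and stood at -0.14 ± 0.09. The antisense transcript ALKBH3-AS1 had 11 to 17 counts in every library, and the uracil glycosylase gene UNG, 4125 bases from ALKBH2, stood at 0.11 ± 0.07. The library kit keeps strand, but the strand setting of the counting is not given in the sources used here, so reads of overlapping genes may have been shared or dropped.

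The repair, checkpoint and p53 lists, those of direct reversal included, held few calls. Over 10 lists of repair, checkpoint and p53 genes, 155 tested genes other than the 7 gave 3 higher and 2 lower (3.23%, beside 6.56% of all tested genes), with a median log2 fold change of 0.0046. ERCC1, a subunit of the endonuclease that cuts damaged strands, was higher, with 58.0 and 62.0 CPM in knockout and 44.3 and 48.0 CPM in wild-type (0.38 ± 0.08, edgeR adjusted p = 0.00103). It was the 1 call among 16 genes of nucleotide excision repair, and without wild-type replicate 1 its adjusted p was 0.0792.

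Of 31 genes of recombination and the Fanconi pathway, 4 had an unadjusted edgeR p under 0.05. Of the 31, 0 were called higher and 1 was called lower, BRCA2, which acts in the repair of broken DNA by homologous recombination. It had 63.3 and 61.1 CPM in knockout and 76.0 and 74.6 CPM in wild-type (-0.27 ± 0.08, adjusted p = 0.0145). Its call was lost without wild-type replicate 1 (adjusted p = 0.18), wild-type replicate 2 (0.12) or knockout replicate 2 (0.0901). With the date as a block the list had 2 calls, the second being the helicase gene BRIP1 (0.20 ± 0.07, adjusted p = 0.105, and 0.0328 with the block). Among 16 genes of translesion synthesis 0 were called (1 at an unadjusted p under 0.05, and 0 with DESeq2), with MAD2L2, a subunit of polymerase zeta, at 0.14 ± 0.07 and the primase-polymerase PRIMPOL at 0.16 ± 0.10.

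The checkpoint and p53 lists gave 1 call each, both of which DESeq2 did not make. At an unadjusted edgeR p under 0.05 there were 1 of the 20 tested checkpoint genes and 7 of the 24 tested p53 genes. Of 20 ATR and ATM checkpoint genes the histone variant gene H2AFX, whose product is phosphorylated at DNA breaks, was higher, with 300.2 and 300.8 CPM in knockout and 273.0 and 241.6 CPM in wild-type (0.22 ± 0.06, edgeR adjusted p = 0.0125, DESeq2 adjusted p = 0.0692). Its log2 fold change was 0.14 without wild-type replicate 2 (adjusted p = 0.557). Of 24 tested genes of the p53 list, PHLDA3 was higher, with 8.89 and 11.4 CPM in knockout and 5.43 and 7.94 CPM in wild-type (0.59 ± 0.17, adjusted p = 0.0263, DESeq2 adjusted p = 0.228). It encodes a repressor of AKT signalling. Its log2 fold change was 0.40 without knockout replicate 2 and 0.35 without wild-type replicate 1, with the call lost in both (adjusted p = 0.405 and 0.505). For CDKN1A, the cell cycle inhibitor most used as a readout of p53 and named here after its values were seen, the log2 fold change was -0.10 ± 0.18 (adjusted p = 0.866).

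**Figure D5:**
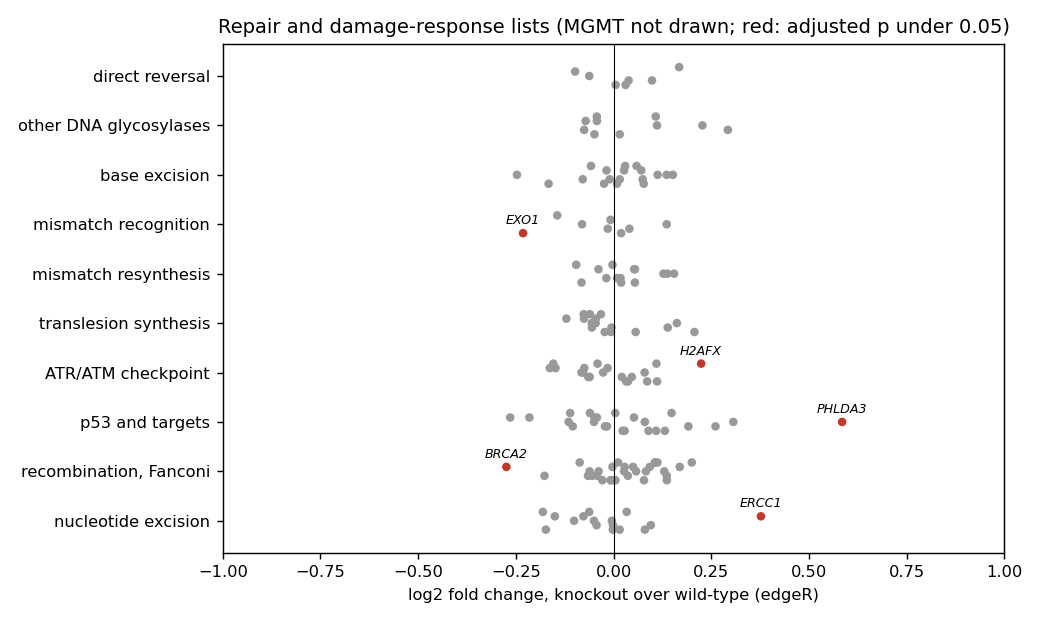
Log2 fold changes, knockout over wild-type, of each tested gene in the 10 lists, without MGMT; each point is 1 gene and red marks an edgeR adjusted p under 0.05. The 5 red genes are EXO1, H2AFX, PHLDA3, BRCA2 and ERCC1, and most other points lie within 0.25 of 0.

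Relatives of ALKBH2 and ALKBH3 and genes reported to act on the MGMT promoter were read beside them. Of 6 other members of the dioxygenase family 1 was higher and 0 lower. This was ALKBH7, a mitochondrial protein, with 27.2 and 30.1 CPM in knockout and 20.5 and 20.9 CPM in wild-type (0.47 ± 0.10, edgeR adjusted p = 0.0012), and the call held under each of the 9 alternatives. The 15 genes reported to regulate MGMT included those for DNA methyltransferases and for the Sp1 factor. Of these 15, 3 had an unadjusted edgeR p under 0.05, 0 were called higher and 1 was called lower. This was the glucocorticoid receptor gene NR3C1, at 0.568 and 0.754 CPM in knockout and 1.06 and 2.15 CPM in wild-type (-1.30 ± 0.40, adjusted p = 0.0368). DESeq2 did not call it (adjusted p = 0.389), and without wild-type replicate 2 its log2 fold change was -0.68 (adjusted p = 0.722). The call was also lost without knockout replicate 1 (adjusted p = 0.167) or knockout replicate 2 (0.0713). CEBPB, a transcription factor gene, missed the threshold in the main fit (-0.42 ± 0.16, adjusted p = 0.128). Blocking by date brought CEBPB past it (adjusted p = 0.0451). Whether CEBPB was called when a library was left out is not given here.

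The 5 genes whose levels were most like those of MGMT were found by the Euclidean distance of log2(CPM + 0.1) over the 4 libraries. They were PTPRN2 (distance 0.905), SETBP1 (1.19), GALNT5 (1.21), GTF2H2 (1.54) and PGM5 (1.6), on chromosomes 7, 18, 2, 5 and 9, and so none lay on chromosome 10. PTPRN2, which encodes a phosphatase-like protein of secretory vesicles, had 1 and 0 counts in knockout and 141 and 209 in wild-type libraries. SETBP1, for a nuclear binding partner of SET, had 0 and 0 counts in knockout and 104 and 151 in wild-type. GALNT5, a glycosyltransferase gene, had 0 and 4 in knockout and 249 and 345 in wild-type. GTF2H2, a TFIIH subunit gene with near-identical copies and thus an uncertain value, had 1 and 0 in knockout and 109 and 114 in wild-type, and PGM5, for a phosphoglucomutase-like protein, 2 and 5 in knockout and 134 and 239 in wild-type. Each of the 5 had fewer counts in both knockout libraries than in either wild-type library, which the search for genes like MGMT itself favours.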

How the data were processed

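Total RNA libraries of knockout (n = 2) and wild-type (n = 2) HAP1 cells were analysed. The authors deposited raw read counts per gene symbol, 1 file per library, with no normalisation. Build hg38 and the tools STAR, featureCounts, Subread, SAMtools, cutadapt and FastQC come from the submitters' processing notes, which list no roles. For the annotation, the strand setting and the tool versions, no statement was found in the labels or headers. Counting may split or drop reads of near-identical or overlapping genes. The small RNA libraries were not analysed here.

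Counts were fitted in R 4.3.3 with edgeR 4.0.16: filterByExpr (minimum count 10), TMM scaling, robust quasi-likelihood F test of knockout against wild-type, Benjamini-Hochberg adjustment over all 16233 genes, threshold 0.05. Every adjusted p not credited to DESeq2 comes from edgeR. SE is the size of the log2 fold change over the square root of F. DESeq2 1.42.0 was an alternative. The biological coefficient of variation was 5.53%. The code was tested on simulated data. Whether replicates came from separate cultures is not stated beyond the term biological replicates, so each p-value reflects only how far these 4 libraries scatter, which may be technical.

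The main edgeR fit and its DESeq2 alternative held no date term, so their SE, intervals and adjusted p were unpaired. Same-date libraries were taken as pairs only in the fit blocked by date and within dates, because the labels share the date. Their 9 May minus 6 May differences correlated across 9747 genes with a mean of at least 10 CPM (r = 0.294, across genes). Positions and promoter windows came from RefSeq GRCh38.p14, matched by symbol or unambiguous older symbol. Members, lists and rules were chosen with earlier results of these data known. Named genes were the members, BCDIN3D, their tested neighbours, overlapping genes and copies, up to 3 called genes each way per list (or the 2 of smallest p), and the 5 genes nearest to MGMT. ASCC3, POLB, CDKN1A, AMBN, BRIP1, CEBPB, GLRX3 and the uncalled markers were named outside that rule, with values known. A few genes of the lists enter the counts but are not reported here by name.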

Additional observations from a re-analysis of the deposited data

How the results depend on the processing

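The 9 alternatives covered scaling, filter, tool, date as a block and each library left out. Fitted log2 fold changes of MGMT ran from -10.7 to -7.38, which is no sign of stability since its near-zero knockout counts chose it. Of the other 6 genes APEX1 passed the threshold at -0.377 without knockout replicate 1 (adjusted p = 7.99e-06), for 2 members past it instead of 1. Its value without knockout replicate 2 was 0.0183. Signs near 0 changed for MSH6 with library size alone (-0.00716) and for ALKBH2 without wild-type replicate 1 (-0.0412), which ranged up to 0.126 without another library. Without 1 library, signs also changed for ASCC3 (-0.0224 to 0.0849), POLB (-0.122 to 0.0129), FBXO11 (-0.0839 to 0.0778), TMEM55B (-0.00488 to 0.191), PMS2CL (-0.0991 to 0.00846) and GLRX3 (-0.0152 to 0.0743), none of them called in those fits. The cause was not tested. Leaving out a library leaves 1 in its group, whose spread is then assumed equal to that of the other group.

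Over all genes 255 were higher and 331 lower with DESeq2, and 767 higher with the replicate block. Without 1 library, 240 to 684 were higher and 340 to 705 lower. Of all calls 36.7% were higher with library size alone and 33.1% without wild-type replicate 1, against 46.7%. Among the listed genes the block changed the calls of PARP2, BRIP1, CEBPB and ITGA2B and no other.

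By date there were 142 calls with RLE (DESeq2-type) size factors, 134 with library size alone, 151 without the filter (1 of them a member, APEX1), 11 with DESeq2 and 0 without the group term.

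List counts were small and moved by 1 or 2 genes. Base excision had 1 call with RLE factors, with library size alone and with the replicate block, and 0 to 2 without 1 library. DESeq2 gave 0 for mismatch recognition, the checkpoint, p53 and MGMT regulators. The replicate block gave 2 for recombination and 2 for MGMT regulators. It gave 1 call (MKI67) among the 14 neighbours and 2 within 2 Mb of MGMT. Without 1 library the count was 0 each time for mismatch recognition, and others ran from 0 to 1 for the checkpoint, 0 to 3 for p53, 0 to 2 for recombination, 0 to 1 for nucleotide excision, 0 to 1 for MGMT regulators, 1 to 3 for blood markers, 0 to 1 among the neighbours and 1 to 2 within 2 Mb.

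With about 9 CPM in wild-type, MGMT was shallow, and its knockout level rests on 1 read.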
